A study of Mus musculus with 8 samples.

Results

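The small leucine-rich proteoglycans (SLRPs) are a family of secreted matrix proteins, and 10 of their genes were followed here among the 41709 genes of an RNA-seq table of mouse skeletal muscle. The members were chosen by gene symbol (*Dcn*, *Bgn*, *Lum*, *Fmod*, *Ogn*, *Omd*, *Prelp*, *Aspn*, *Kera* and *Podn*). *Ogn* and *Omd* are among them because their mRNAs were seen to be higher in this same comparison, so their values are a description and are not tested. The other 8 are members by family alone. All 10 were in the table and all 10 passed the filter of 1 TPM (transcript abundance scaled to gene length and to a fixed total per muscle) in at least 4 of 8 muscles, as did 11530 genes in all. *Omd* passed only through the muscles with *Uba1* siRNAs, since 0 of 4 control muscles and 4 of 4 muscles with *Uba1* siRNAs reached 1 TPM, so that it had to differ.

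Male C57BL/6J mice, 3 months old and with no genetic change, gave the tibialis anterior (TA) muscles, which were taken 7 days after electroporation. One leg of each of 4 mice received a pool of siRNAs against *Uba1*, the E1 enzyme that activates ubiquitin, and the contralateral leg received non-targeting (NT) siRNAs, each at 1500 pmol in 30 μl after hyaluronidase. Both groups were therefore injected and electroporated, and no untreated muscle was compared. Equal replicate numbers mark the legs of 1 mouse, all NT legs carry the letter R and all *Uba1* legs the letter L, so that leg and siRNA cannot be told apart. Some treatment tags name UBA2, UBA3 or UBA4 for replicates 2 to 4, whereas every title and description names UBA1. The targeted mRNA was at 60.6, 59.0, 63.6 and 59.1 TPM in the NT muscles of mice 1 to 4 and at 18.1, 6.77, 15.8 and 23.1 TPM in their *Uba1* muscles. The groups did not overlap, with a log2 fold change (log2FC) for *Uba1* of -1.98 (SE 0.290, limma adjusted p = 0.0527, and adjusted p = 0.0278 with the mouse as a block). Whole muscle was sequenced and no cell type was selected, and in such samples fewer cells of a type and less RNA per cell cannot be told apart. TPM keep no read depth, which is therefore unknown.

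An SLRP has a core protein of leucine-rich repeats that curves around its ligands and, in most members, carries glycosaminoglycan chains. SLRPs bind fibrillar collagens and set the width and spacing of the fibrils, and several also bind growth factors such as TGF-β and myostatin. In skeletal muscle they are made mainly by fibroblast-like cells of the connective tissue around and between the fibers and in the tendon, rather than by the muscle fibers.

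Several members lie side by side in the genome (GRCm39). On chromosome 13, *Aspn* (49697609 to 49721057), *Omd* (49735938 to 49746298) and *Ogn* (49761349 to 49780412) follow each other on the plus strand, after the related *Ecm2* (49658236 to 49687964). This cluster lies within *Cenpp*, a centromere protein gene on the minus strand (49617492 to 49806396). On chromosome 10, *Dcn* (97315275 to 97358155), *Lum* (97400990 to 97408577) and *Kera* (97442728 to 97449554) form a second cluster on the plus strand. On chromosome 1, *Prelp* (133837335 to 133857971, minus strand) neighbors *Fmod* (133964992 to 133976015, plus strand). *Bgn* is on chromosome X (72527208 to 72539541, plus strand) and *Podn* on chromosome 4 (107871988 to 107889534, minus strand). Exons of *Ogn* and *Aspn* share 1155 and 267 bases with exons of *Cenpp* on the other strand, *Prelp* shares 350 bases with the antisense RNA *Gm15851*, and *Omd* shares 0 with *Cenpp*. The library kit does not mark strand, so reads from shared bases cannot be assigned to one strand. *Cenpp* itself was at 0.474 to 0.889 TPM in the 8 muscles.

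The stretches of 250 bases before the start of *Ogn*, *Omd* and *Lum* are shown because *Ogn* and *Omd* are neighbors that were both higher, and *Lum* had the lowest adjusted p of the 8 other members. They were read from the plus strand of GRCm39 and end 1 base before the start of the canonical GENCODE transcript. Capitals mark matches to the motifs searched on both strands, which were the TATA box (TATAAA), the CAAT box (CCAAT), the GC box (GGGCGG), the AP-1 site (TGANTCA) and the RUNX site (TGTGGT).
*Ogn* promoter (chr13:49761099-49761348): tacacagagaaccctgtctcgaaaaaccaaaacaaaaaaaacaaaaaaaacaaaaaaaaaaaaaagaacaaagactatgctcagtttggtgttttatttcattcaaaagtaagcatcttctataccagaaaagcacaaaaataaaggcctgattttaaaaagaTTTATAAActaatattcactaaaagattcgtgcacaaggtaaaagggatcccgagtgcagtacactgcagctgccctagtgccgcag
*Omd* promoter (chr13:49735688-49735937): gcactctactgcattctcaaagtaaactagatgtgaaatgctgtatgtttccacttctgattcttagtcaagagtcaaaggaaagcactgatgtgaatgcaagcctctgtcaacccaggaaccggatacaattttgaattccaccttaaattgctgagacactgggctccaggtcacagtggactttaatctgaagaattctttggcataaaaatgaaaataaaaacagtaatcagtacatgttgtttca
*Lum* promoter (chr10:97400740-97400989): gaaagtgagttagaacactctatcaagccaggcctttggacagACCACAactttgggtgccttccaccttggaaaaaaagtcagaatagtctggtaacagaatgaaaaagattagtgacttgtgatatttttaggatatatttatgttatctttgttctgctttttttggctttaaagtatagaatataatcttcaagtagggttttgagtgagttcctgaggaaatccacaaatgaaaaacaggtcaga
The *Ogn* stretch holds TATAAA on each strand, as overlapping matches that begin 87 and 85 bases before the start. TATAAA was found in 11.9% of 21757 promoters of the same length. The *Lum* stretch holds the RUNX letters on the minus strand, 207 bases before the start, as did 13.0% of promoters. None of the 5 motifs was found in the *Omd* stretch. The CAAT box, GC box and AP-1 letters, held by 36.5%, 36.3% and 6.18% of promoters, were not found in these 3 stretches.

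*Ogn* encodes osteoglycin (mimecan), a class III SLRP that binds collagen. Its mRNA was at 28.9, 15.5, 23.3 and 17.9 TPM in the NT muscles of mice 1 to 4 and at 33.0, 28.4, 36.2 and 31.7 TPM in the *Uba1* muscles. The *Uba1* muscle was the higher one in 4 of 4 mice, and the groups touched only where NT replicate 1 (28.9 TPM) exceeded *Uba1* replicate 2 (28.4 TPM). The mean went from 21.4 ± 5.97 to 32.3 ± 3.24 TPM (SD, n = 4 muscles each), which is 1.51-fold, and the log2FC on the log2(TPM + 1) scale was 0.61 (SE 0.17, 95% interval 0.22 to 0.99).

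*Omd* encodes osteomodulin (osteoadherin), a keratan sulfate SLRP of class II known from bone. It was at 0.987, 0.517, 0.475 and 0.245 TPM in the NT muscles and at 1.02, 1.88, 1.54 and 2.49 TPM in the *Uba1* muscles. The groups did not overlap, but the legs of mouse 1 were nearly equal, and the fold between the legs of a mouse ran from 1.04 to 10.1. The mean went from 0.556 ± 0.311 to 1.73 ± 0.614 TPM (SD, n = 4 each), a ratio of 3.11, with a log2FC of 0.80 (SE 0.19, 95% interval 0.38 to 1.23). These are levels near 1 TPM, where the pseudocount of 1 holds the log2FC down, and with a pseudocount of 0.1 the log2FC of *Omd* was 1.54.

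**Figure D1:**
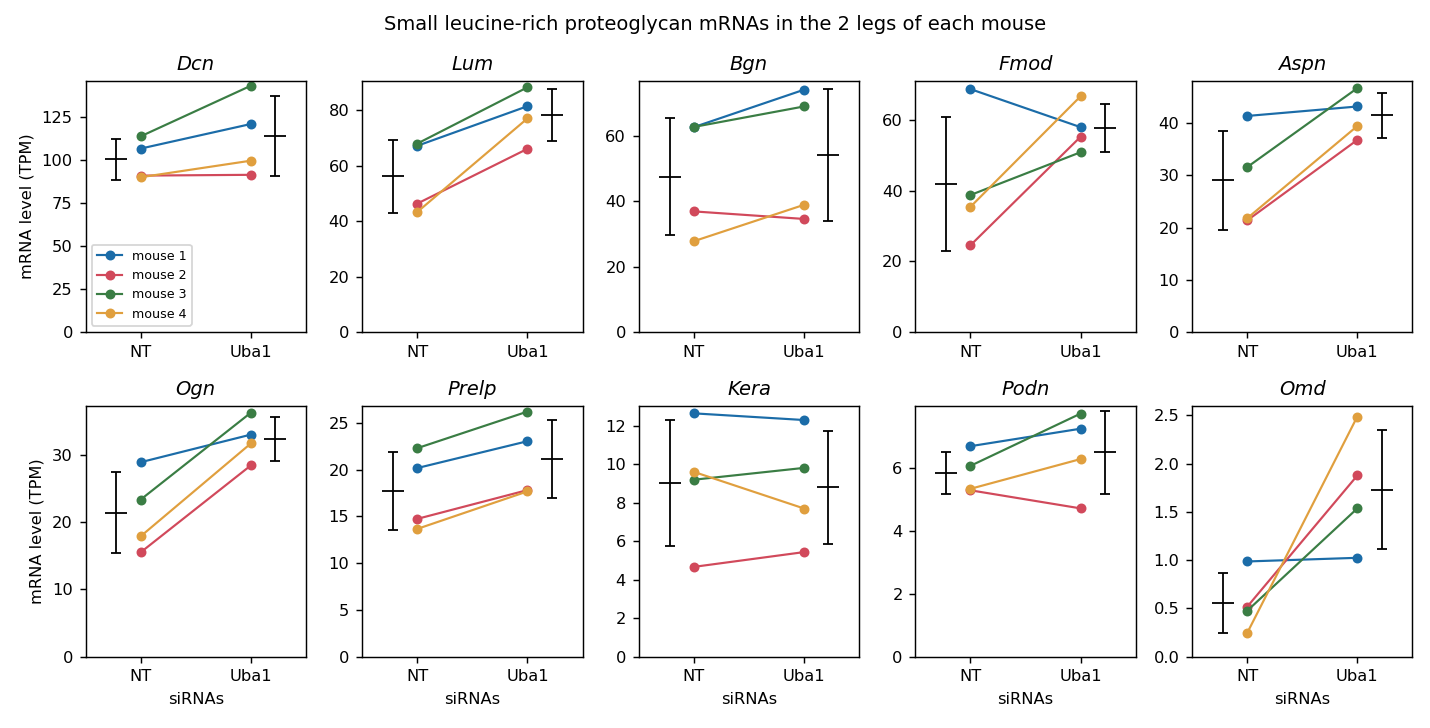
mRNA levels in TPM (linear axis from 0) of the 10 SLRP genes in the NT leg and the *Uba1* leg of each of 4 mice, with a line per mouse and, at the sides, the mean and SD of each group (n = 4). *Ogn* and *Omd* were higher in the *Uba1* leg of all 4 mice, with the flattest line in mouse 1, whereas lines for *Kera* go both ways.

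Among the class I members, which carry chondroitin or dermatan sulfate chains, *Aspn* encodes asporin, a collagen-binding member that lacks such chains. *Aspn* was at 41.4, 21.4, 31.6 and 21.8 TPM in the NT muscles and at 43.2, 36.8, 46.7 and 39.4 TPM in the *Uba1* muscles. It was higher in 4 of 4 pairs of legs, yet NT replicate 1 lay above 2 of the *Uba1* muscles. The log2FC was 0.55 (SE 0.19), and *Aspn* did not pass the test (limma adjusted p = 0.209). *Dcn* encodes decorin, the best known SLRP of muscle, and was at 107, 90.9, 114 and 90.0 TPM in the NT muscles and at 121, 91.4, 143 and 99.6 TPM in the *Uba1* muscles. The *Uba1* leg was higher in 4 of 4 pairs, by 1.01-fold to 1.26-fold, while the groups overlapped, with a log2FC of 0.17 (SE 0.14, 95% interval -0.16 to 0.49, limma adjusted p = 0.530, and SE 0.073 and adjusted p = 0.208 with the mouse as a block). *Bgn* encodes biglycan, the closest relative of decorin, and ranged from 27.8 to 62.8 TPM with NT siRNAs and from 34.6 to 74.2 TPM with *Uba1* siRNAs. Its log2FC was 0.19 (SE 0.32, 95% interval -0.54 to 0.92, limma adjusted p = 0.755), and without NT replicate 4, its lowest muscle, the log2FC turned to -0.035. With the mouse as a block the SE of *Bgn* was 0.095 (95% interval -0.035 to 0.41, limma adjusted p = 0.250). That of *Aspn* was then 0.13 (95% interval 0.25 to 0.84, limma adjusted p = 0.0890).

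Of the class II members besides *Omd*, *Lum* and *Fmod* encode lumican and fibromodulin, which share a binding region on collagen fibrils. *Lum* was at 67.2, 46.4, 68.0 and 43.3 TPM in the NT muscles and at 81.5, 66.1, 88.3 and 77.1 TPM in the *Uba1* muscles. It was higher in 4 of 4 pairs, with *Uba1* replicate 2 below the highest 2 NT muscles. The log2FC of *Lum* was 0.49 (SE 0.16, 95% interval 0.13 to 0.85, limma adjusted p = 0.187). *Fmod* was at 68.8, 24.6, 38.8 and 35.5 TPM in the NT muscles and at 58.0, 55.3, 50.9 and 66.8 TPM in the *Uba1* muscles. NT replicate 1 was the highest of all 8 muscles, and *Fmod* was higher in the *Uba1* leg of the other 3 mice. The log2FC of *Fmod* was 0.54 (SE 0.25, limma adjusted p = 0.297). With the mouse as a block the SE of *Lum* was 0.096 (95% interval 0.27 to 0.72, limma adjusted p = 0.0743). That of *Fmod* was then 0.21 (95% interval 0.061 to 1.03, limma adjusted p = 0.167).

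*Prelp* encodes a heparin-binding class II member that anchors basement membrane to connective tissue. *Prelp* was higher in 4 of 4 pairs by 1.14-fold to 1.29-fold, with group means of 17.7 ± 4.17 and 21.2 ± 4.17 TPM (SD, n = 4 each), overlapping groups and a log2FC of 0.25 (SE 0.18, limma adjusted p = 0.441). *Kera* encodes keratocan, known from the cornea, and was at 12.7, 4.67, 9.20 and 9.61 TPM in the NT muscles and at 12.3, 5.44, 9.82 and 7.71 TPM in the *Uba1* muscles. The *Uba1* leg was higher in 2 of 4 mice, and *Kera* was the member with a log2FC below 0, at -0.014 (SE 0.29, 95% interval -0.66 to 0.63, limma adjusted p = 0.982). *Podn* encodes podocan, the class V member, and had means of 5.85 ± 0.667 and 6.50 ± 1.33 TPM (SD, n = 4 each) with a log2FC of 0.12 (SE 0.13, limma adjusted p = 0.639). With the mouse as a block the SE of *Prelp* was 0.063 (95% interval 0.11 to 0.40, limma adjusted p = 0.0981). That of *Kera* was then 0.088 (95% interval -0.22 to 0.19, limma adjusted p = 0.927). For *Podn* it was 0.086 (95% interval -0.086 to 0.32, limma adjusted p = 0.398).

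Of the 8 members not chosen for their values, 0 passed an adjusted p of 0.05 by limma, where 0.026% of all genes tested did, and 0 passed with the mouse as a block, where 0.494% did. The lowest adjusted p among the 8 with the block was that of *Lum* (0.0743). At an unadjusted P under 0.05, 2 of the 8 were higher (*Lum*, 0.0133, and *Aspn*, 0.0195), beside 16% of all genes. The criterion of the study, an unadjusted P under 0.05 with a log2FC above 0.58, was met by 2 of 10 members, *Ogn* and *Omd*, beside 0.442% of all genes, and 0 members met its counterpart below -0.58, beside 0.833%. Because these 2 were chosen on this contrast, nothing is read from that count. *Ogn* lay just inside the limit at 0.61, and *Aspn* and *Fmod* lay just outside at 0.55 and 0.54.

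The log2FC was above 0 for 7 of the 8 members not chosen for their values, and for 9 of 10 with *Ogn* and *Omd*, but 81.8% of all genes tested also had a log2FC above 0. The median log2FC was 0.37 over the 10 members, 0.22 over the 8 not chosen for their values and 0.11 over all genes tested. After scaling the muscles by median ratios, the share of all genes above 0 was 50.7%, 7 of the 8 were still above 0, and these medians became 0.25, 0.10 and 0.0016. The *Uba1* muscle was the higher one in all 4 mice for 6 of 10 members and for 4 of the 8 not chosen for their values, beside 32.2% of all genes, and 0 of 10 were lower in all 4 mice, beside 2.98%. *Omd* was the 1 member whose groups did not overlap, beside 10.6% of all genes that did not overlap and were higher, and 0 members were lower without overlap, beside 1.01%.

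**Figure D2:**
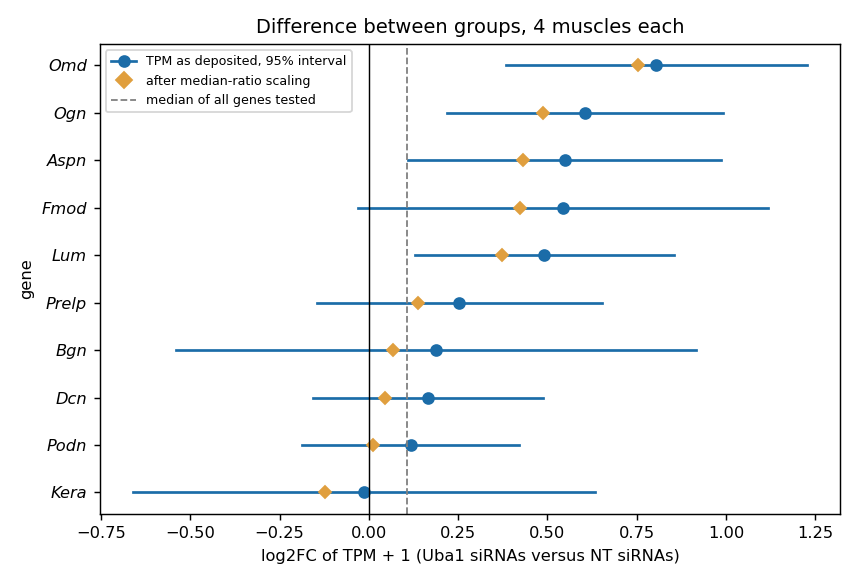
log2FC of TPM + 1 between *Uba1* and NT muscles (n = 4 each) for the 10 SLRP genes, with the 95% interval from limma (line) and the value after median-ratio scaling (diamond). The dashed line is the median of all genes tested (0.11), and the values run from -0.014 for *Kera* to 0.80 for *Omd*. The intervals are of the difference between groups, without the mouse as a block. *Ogn* and *Omd* were chosen on this contrast, so their intervals are a description and no test.

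The summed TPM of the 10 members was 416, 261, 376 and 265 in the NT muscles and 454, 343, 479.7 and 388 in the *Uba1* muscles, higher in 4 of 4 pairs with overlapping groups. *Dcn* made up 31.2% ± 4.20 of the sum in the NT group and 27.2% ± 1.81 in the *Uba1* group (SD, n = 4 each). The share of *Lum* was 17.1% ± 0.977 and 18.9% ± 0.876, and that of *Ogn* 6.46% ± 0.465 and 7.82% ± 0.494, both higher in 4 of 4 pairs. The share of *Kera* and of *Podn* was lower in 4 of 4 pairs, at 2.73% ± 0.787 and 2.08% ± 0.464 for *Kera* and at 1.82% ± 0.237 and 1.55% ± 0.117 for *Podn*.

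By mean level in TPM, a scale per length, the NT muscles held *Dcn* first, then *Lum*, *Bgn*, *Fmod*, *Aspn*, *Ogn*, *Prelp*, *Kera*, *Podn* and *Omd*. In this order the ranges of neighbors did not overlap between *Dcn* and *Lum*, between *Prelp* and *Kera* and between *Podn* and *Omd*, and overlapped elsewhere. In the *Uba1* muscles *Fmod* stood before *Bgn* with overlapping ranges, and the ranges of *Aspn* and *Ogn* and of *Ogn* and *Prelp* were also apart.

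Mouse 1 differed from the other mice in several members. The difference between its legs, on the log2(TPM + 1) scale, was 0.027 for *Omd*, 0.060 for *Aspn*, 0.19 for *Ogn* and -0.24 for *Fmod*. In mice 2, 3 and 4 it was 0.92, 0.78 and 1.49 for *Omd*, 0.83, 0.61 and 0.79 for *Ogn* and 0.76, 0.55 and 0.83 for *Aspn*. For *Fmod* it was 1.14, 0.38 and 0.89. Without both muscles of mouse 1, a choice made after seeing the data, 4 of 10 members met the criterion of the study, beside 0.772% of all genes. These were *Ogn* and *Omd*, chosen on this contrast, and *Aspn* and *Fmod*. All 4 had their lowest leg difference in mouse 1, so leaving it out had to raise their log2FC. Nothing is read from this count. No gene at all passed an adjusted p of 0.05 by limma in those 6 muscles (0 of 11530, with 1376 at an unadjusted P under 0.05). The log2FC was then 1.06 for *Omd*, 0.81 for *Fmod*, 0.75 for *Ogn* and 0.71 for *Aspn*.

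**Figure D3:**
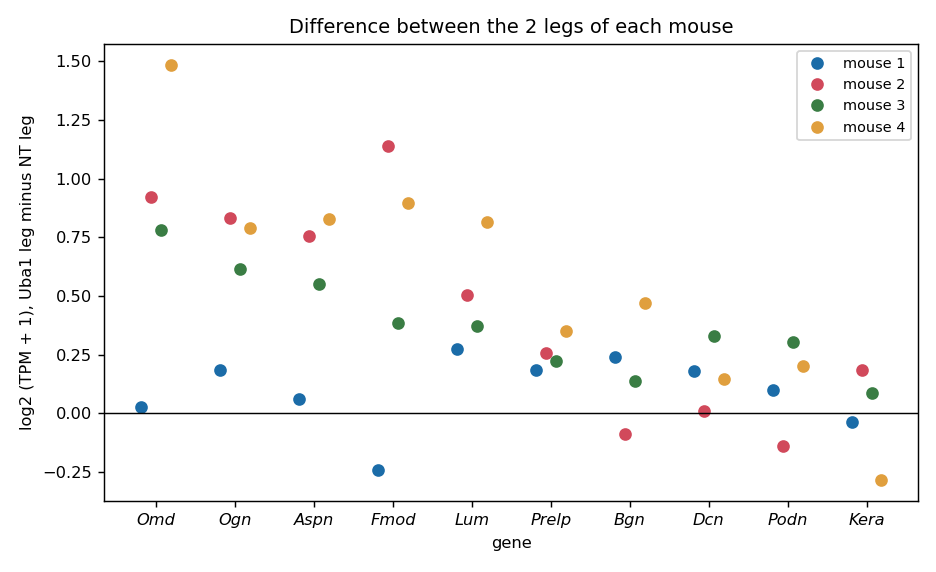
Difference between the legs of each mouse on the log2(TPM + 1) scale, *Uba1* leg minus NT leg, for the 10 SLRP genes ordered by log2FC, with a color per mouse. Mouse 1 lies lowest for *Omd*, *Ogn*, *Fmod*, *Aspn*, *Lum* and *Prelp*, at -0.24 for *Fmod* and 0.027 for *Omd*.

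How the members varied between muscles of the same group was described by the Pearson r of deviations from the group means of log2(TPM + 1), over 8 muscles from 4 mice that share dissection, library and TPM scaling. *Ogn* and *Aspn* went together most closely (r = 0.98), and *Aspn* was the gene most like *Ogn* among all genes tested, by the log2 values as well as by the deviations. *Lum* went with *Prelp* (r = 0.92), *Aspn* (r = 0.92), *Bgn* (r = 0.90) and *Ogn* (r = 0.90) alike, and *Prelp* also with *Bgn* (r = 0.95) and *Dcn* (r = 0.92). *Omd* stood apart, with r = 0.33 with its neighbor *Ogn*, 0.37 with *Aspn*, 0.54 with *Fmod* and -0.22 with *Dcn*. The log2 values still hold the difference between the groups, on which *Ogn* and *Omd* were chosen, so a shared difference adds to r. By the log2 values, the genes after *Aspn* most like *Ogn* were *Fzd1*, a Wnt receptor gene (r = 0.98), *Bicc1* (r = 0.98), *Dlg3* (r = 0.98) and *Taf3* (r = 0.97). Among those most like *Omd* were *Dipk1b* (r = 0.97), *Adcy6* (r = 0.96), *Zbtb12* (r = 0.95) and *Lrrc15* (r = 0.94). By the deviations, *Fat1*, *Elmo1*, *Hmgxb4* and *Fzd1* followed *Aspn* for *Ogn* (each r = 0.97), and *Ablim1*, *Epas1*, *Mylk*, *Gm45837* and *Dipk1b* were most like *Omd* (r = 0.91 to 0.95).

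Marker genes of the cell types that a TA muscle sample could hold moved with some members. The 8 tendon markers summed to 80.5 to 178 TPM in the NT muscles and 114 to 182 TPM in the *Uba1* muscles, higher in 4 of 4 pairs, and 7 of 7 tested had a log2FC above 0 (median 0.41), beside 81.8% of all genes (median 0.11). Of the 7 tested, 3 were higher in all 4 pairs, beside 32.2% of all genes. Most of the tendon sum was *Thbs4*, at 63.1 to 130 TPM in the NT muscles and 75.4 to 135 TPM in the *Uba1* muscles. NT replicate 1 held the highest tendon sum of the NT muscles. By deviations, the tendon sum went with *Kera* (r = 0.94), *Ogn* (r = 0.92) and *Aspn* (r = 0.89) and less closely with *Lum*, *Bgn* and *Podn* (each r = 0.79), *Fmod* (r = 0.76), *Prelp* (r = 0.74) and *Dcn* (r = 0.69), beside r = 0.025 for *Omd*. The 11 bone markers summed to 29.6, 17.9, 18.5 and 18.2 TPM in the NT muscles and 23.8, 80.3, 37.0 and 65.8 TPM in the *Uba1* muscles, with *Mepe* and *Sost* at 0 in all 8. Mouse 1 was the mouse with the lower bone sum in its *Uba1* leg. Of 5 bone markers tested, 5 had a log2FC above 0 (median 1.22), beside 81.8% of all genes, 4 met the criterion of the study (*Spp1*, *Bglap*, *Bglap2* and *Ibsp*), beside 0.442%, and 0 passed the adjusted p. *Bglap*, *Bglap2* and *Ibsp* reached 1 TPM in fewer NT than *Uba1* muscles, so that the group where they were higher weighed more in the filter, and nothing is read from these counts. By deviations the bone sum went with *Omd* (r = 0.84) and not with *Ogn* (r = 0.082). The 12 fibroblast and fibro-adipogenic progenitor markers summed to 674 to 933 TPM with NT siRNAs and 609 to 1069 TPM with *Uba1* siRNAs. Of these, 9 of 12 were above 0 (median log2FC 0.14), beside 81.8% of all genes. The largest part of the sum was *Gsn*, at 385 to 472 TPM with NT siRNAs and 334 to 511 TPM with *Uba1* siRNAs. By deviations this sum went with *Dcn* (r = 0.96), *Bgn* and *Prelp* (both r = 0.86) and *Podn* (r = 0.85), and with *Lum* (r = 0.72). These first 4 members, in that order, also went with the summed macrophage markers (r = 0.90, 0.84, 0.86 and 0.73) and adipocyte markers (r = 0.79, 0.83, 0.73 and 0.72), *Dcn* and *Podn* with the myofiber markers (both r = 0.79), *Lum* with the macrophage markers (r = 0.70), and *Podn*, *Dcn* and *Bgn* with the Schwann markers (r = 0.76, 0.73 and 0.71). *Aspn* also went with the smooth muscle and pericyte markers (r = 0.74). The part of these cell types in the values of *Ogn*, *Omd* and the other members was not tested.

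The remaining lists, in summed TPM, were the 9 myofiber markers (125622 to 134637 with NT siRNAs, 102380 to 138293 with *Uba1* siRNAs), macrophage (145 to 462, 135 to 480.4), endothelial (150 to 221, 165 to 207), smooth muscle and pericyte (245 to 384, 270 to 292), Schwann (77.6 to 111, 59.4 to 122) and adipocyte markers (90.6 to 139, 68.3 to 123). The adipocyte sum was lower in the *Uba1* leg in 4 of 4 pairs, with 4 of 5 tested below 0, beside 2094 of all 11530 genes. The median log2FC of these markers was -0.83, beside 0.11 for all genes. The lower criterion was met by 1 of them (*Cidec*), beside 0.833% of all genes, and 0 passed the adjusted p. Here 3 of the 5 tested (*Adipoq*, *Plin1* and *Cidec*), and *Sox9* among the cartilage markers, reached 1 TPM in more NT than *Uba1* muscles, so that the NT group weighed more in the filter. Cartilage markers summed to 2.90 to 4.21 and 2.04 to 3.70 TPM, lower in 4 of 4 pairs, with *Matn1* and *Snorc* at 0, and the 1 tested, *Sox9*, met the lower criterion (log2FC -0.60) and did not pass the adjusted p. The myofiber markers were the list with the highest sum in all 8 muscles. Transcripts of the mitochondrial genome took 42.1% to 45.7% of the TPM with NT siRNAs and 39.9% to 50.3% with *Uba1* siRNAs.

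**Figure D4:**
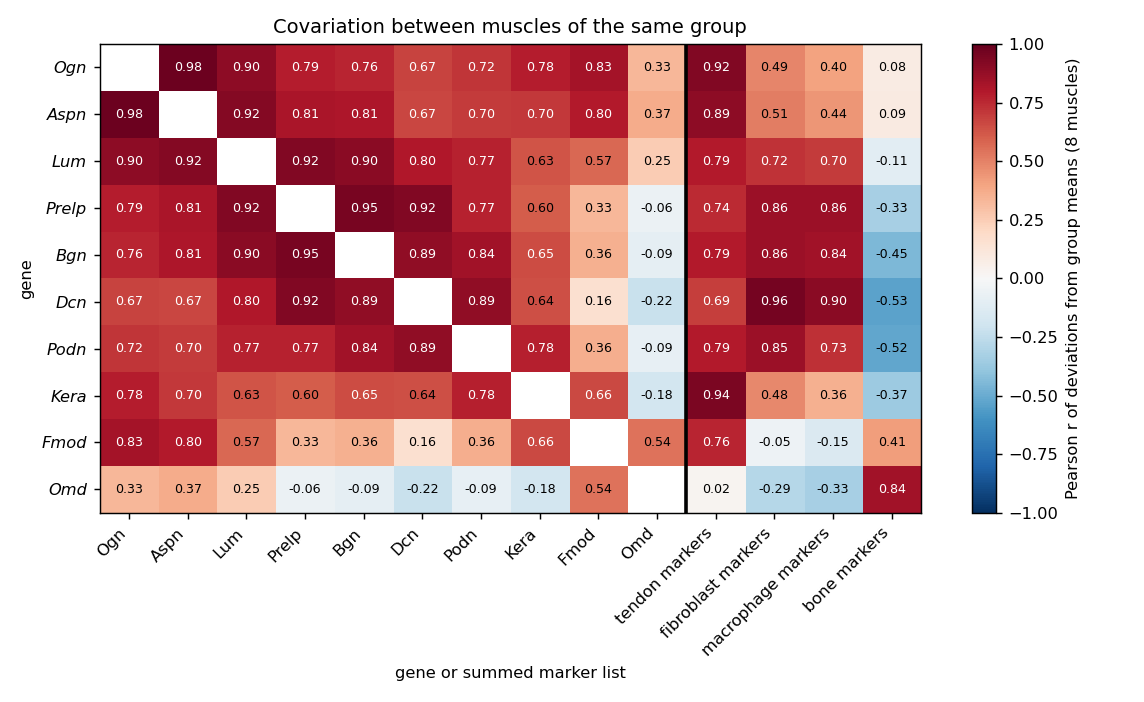
Pearson r of the deviations from group means of log2(TPM + 1) over 8 muscles, between the 10 SLRP genes (left of the bar) and between each gene and the summed markers of 4 cell types (right of the bar). *Ogn* and *Aspn* have the highest value between members (r = 0.98), *Lum* is at 0.90 to 0.92 with *Prelp*, *Aspn*, *Bgn* and *Ogn*, and *Omd* has its highest value with bone markers (r = 0.84).

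Of 8 further genes of the family, 3 passed the filter. *Chad* encodes chondroadherin, a cartilage and tendon member, and was at 12.9, 1.61, 4.18 and 3.94 TPM in the NT muscles and 4.60, 11.3, 7.81 and 11.9 TPM in the *Uba1* muscles. As for *Fmod*, NT replicate 1 was the highest muscle, and the log2FC of *Chad* was 0.77 (SE 0.46, limma adjusted p = 0.379). *Ecm2*, the neighbor of *Aspn*, had a log2FC of 0.17 (SE 0.14, limma adjusted p = 0.506) and *Tsku* one of 0.18 (SE 0.15, limma adjusted p = 0.511). On the far side of *Ogn*, *Nol8*, a nucleolar protein gene, was at 1.66 to 2.08 TPM with NT siRNAs and 2.18 to 2.91 TPM with *Uba1* siRNAs (log2FC 0.27, limma adjusted p = 0.207). *Ippk*, beyond *Ecm2*, had a log2FC of -0.0054 (limma adjusted p = 0.980).

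In the lists of partner genes, some genes reached 1 TPM in more muscles of one group than of the other. That group then weighed more in whether such genes passed the filter, so they are named, and nothing is read from the counts above 0, which stand beside 81.8% and a median of 0.11 for all genes tested (50.7% above 0 after median-ratio scaling). Among the genes for the matrix that SLRPs bind, 12 of 12 tested fibrillar and fibril-associated collagens had a log2FC above 0, with a median of 0.35, of which *Col11a1* and *Col27a1* reached 1 TPM in more *Uba1* than NT muscles. None of the 12 passed the adjusted p, and 10 stayed above 0 after median-ratio scaling. *Col12a1*, a fibril-associated collagen, was at 6.66, 1.28, 2.55 and 3.36 TPM in the NT muscles and 4.17, 16.5, 7.28 and 16.8 TPM in the *Uba1* muscles, with a log2FC of 1.41 (SE 0.46, limma adjusted p = 0.187). Mouse 1 again went the other way. *Col11a1* was at 0.416 to 1.89 TPM with NT siRNAs and 1.94 to 3.41 TPM with *Uba1* siRNAs, with a log2FC of 0.82 (SE 0.22, limma adjusted p = 0.162). The abundant *Col1a1*, *Col1a2* and *Col3a1* had a log2FC of 0.57, 0.55 and 0.26 (limma adjusted p = 0.340, 0.271 and 0.691).

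Of 15 tested genes of collagen crosslinking and propeptide processing, 15 had a log2FC above 0 (median 0.17) and 13 after median-ratio scaling. *P4ha3* reached 1 TPM in more *Uba1* than NT muscles and *Adamts14* in more NT muscles. *Lox*, which encodes lysyl oxidase, was at 6.32, 4.28, 6.88 and 5.09 TPM in the NT muscles and 9.36, 7.76, 9.34 and 8.65 TPM in the *Uba1* muscles, groups that did not overlap. Its log2FC was 0.57 (SE 0.13) and it did not pass by limma (adjusted p = 0.137) but passed with the mouse as a block (adjusted p = 0.0390), a call lost when median-ratio scaling was added to the block (adjusted p = 0.114). It was named after its values were seen. *Pcolce*, *P4ha1* and *Loxl1* had a log2FC of 0.19, 0.20 and 0.24, none of which passed (limma adjusted p = 0.690, 0.444 and 0.621).

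Of 9 tested proteases known to cut SLRPs, 6 had a log2FC above 0 and 3 below 0, beside 81.8% of all genes above 0. *Mmp9* reached 1 TPM in more *Uba1* than NT muscles and *Adamts4* in more NT muscles. *Mmp13*, a collagenase gene, was at 8.52, 1.40, 5.85 and 4.12 TPM in the NT muscles and 9.13, 59.9, 19.5 and 58.1 TPM in the *Uba1* muscles. Its groups did not overlap, mouse 1 showed the smallest difference, and the log2FC was 2.47 (SE 0.61, limma adjusted p = 0.147). *Adamts4* was at 5.35, 4.90, 4.21 and 3.08 TPM in the NT muscles and 2.17, 1.48, 1.71 and 0.780 TPM in the *Uba1* muscles. It missed the threshold by limma (log2FC -1.10, adjusted p = 0.0765), passed it after median-ratio scaling (adjusted p = 0.0472) and fell with the mouse as a block (adjusted p = 0.00535). *Adamts1* was at 36.4 to 59.4 TPM with NT siRNAs and 20.1 to 34.3 TPM with *Uba1* siRNAs, with a log2FC of -0.93 (limma adjusted p = 0.129, and 0.0133 with the mouse as a block). *Mmp2*, *Mmp14* and *Htra1* had a log2FC of 0.35, 0.26 and 0.41 (limma adjusted p = 0.414, 0.576 and 0.168).

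The enzymes that build the glycosaminoglycan chains form 2 lists. Of 19 tested genes for chondroitin and dermatan sulfate synthesis, 18 had a log2FC above 0 (median 0.16), beside 81.8% of all genes, and 14 did after median-ratio scaling, beside 50.7%. *Chst7* and *Ust* among them reached 1 TPM in more *Uba1* than NT muscles, and 0 of the 19 passed the adjusted p, beside 0.026% of all genes. *Fam20b*, *B3gat3* and *Csgalnact2* had a log2FC of 0.31, 0.028 and 0.16, of which that of *B3gat3* turned to -0.088 after median-ratio scaling. Of 7 tested genes for keratan sulfate synthesis and tyrosine sulfation, 6 were above 0 (median 0.14) and 4 after median-ratio scaling, beside the same shares, *Chst1* reached 1 TPM in more NT than *Uba1* muscles, and *St3gal2*, *B4galt1* and *Tpst2* had a log2FC of 0.32, 0.24 and 0.17.

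Growth factors and receptors that SLRPs bind or modulate had a median log2FC of 0.14, with 14 of 19 tested above 0, beside 81.8% and a median of 0.11 for all genes, and 0 past the adjusted p. *Tlr4* reached 1 TPM in more *Uba1* than NT muscles, and *Bmp2* and *Tlr2* in more NT muscles. *Ccn2* had a log2FC of 0.33, *Itgb1* of 0.083 (-0.038 after median-ratio scaling) and *Mstn*, which encodes myostatin, of -0.042. Of the large and cell-surface proteoglycans 12 of 14 tested were above 0 (median 0.061), beside 81.8% of all genes, but 5 after median-ratio scaling, beside 50.7%, *Vcan* reached 1 TPM in more NT than *Uba1* muscles, and *Gpc1*, *Hspg2* and *Gpc4*, at 0.017, 0.095 and 0.059, turned to -0.10, -0.024 and -0.055 under it. *Sdc4*, the syndecan-4 gene, was at 35.4, 43.0, 33.1 and 39.2 TPM in the NT muscles and 20.4, 23.5, 19.1 and 25.3 TPM in the *Uba1* muscles. The log2FC of *Sdc4* was -0.75 (SE 0.11, limma adjusted p = 0.0527), and it fell with the mouse as a block (adjusted p = 0.00984).

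**Figure D5:**
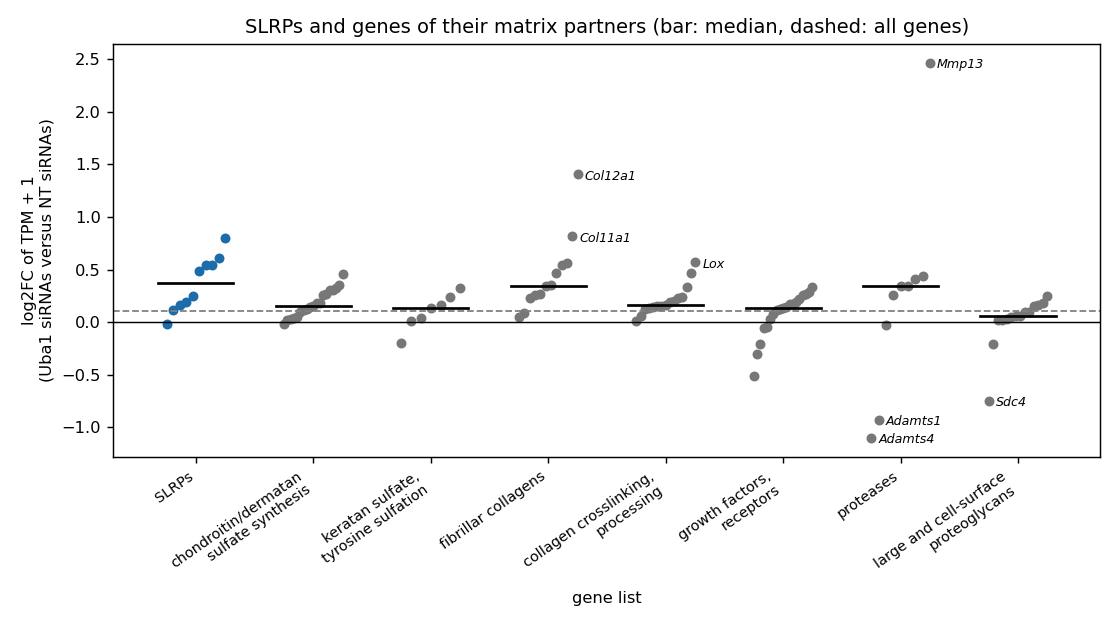
log2FC of TPM + 1 between *Uba1* and NT muscles for the 10 SLRP genes and 7 lists of genes for their chains, ligands, processing and cleavage, a point per gene tested, with the list median (bar), 0 (solid line) and the median of all genes tested (dashed line, 0.11). The median was 0.35 for collagens and 0.37 for SLRPs with the chosen *Ogn* and *Omd*, or 0.22 over the 8 others, and *Mmp13*, at 2.47, and *Adamts4*, at -1.10, mark the ends.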

How the data were processed

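RNA-seq of 8 TA muscles (4 with NT and 4 with *Uba1* siRNAs) was analyzed. The authors trimmed paired-end reads from TruSeq libraries, used CLC Genomics Workbench 20.0.4 for alignment to GRCm39 and deposited gene values as TPM. The annotation is not given in the sources used here. TPM keep no depth, so no counting interval is given and the number of muscles limits the precision.

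Groups follow the sample titles. Values were taken as log2(TPM + 1), for genes that reached 1 TPM in no fewer than 4 of 8 muscles. The test was limma 3.58.1 in R 4.3.3 (lmFit, eBayes with a trend), with all 8 muscles, no block and Benjamini-Hochberg adjustment over all 11530 genes tested. The study's methods name a Kruskal-Wallis test, which was an alternative, with other pseudocounts, filters and scalings, no moderation, the mouse as a block and leaving out each muscle. The limma test was run on simulated data with a log2 change of 2 in 200 genes and no pairing. That setting does not cover differences as small as those of the members. Same-numbered muscles come from 1 mouse, as the titles show, and the deviations of such pairs had r = -0.00037, 0.20, 0.58 and 0.54. Figures and summaries used Python 3.11.15.

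The members and lists were chosen with earlier results of these data known. Genes named were all members and other SLRP genes, list genes that passed the adjusted p or the criterion of the study and up to 3 more per list by mean TPM, the 5 genes most like *Ogn* and *Omd*, their neighbors in GENCODE M39, and *Uba1*. *Lox*, *Thbs4*, *Gsn*, the bone, adipocyte and cartilage markers, the genes that reached 1 TPM in more muscles of 1 group and the genes at 0 were named after values were seen. A gene that this rule would name is not reported here.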

Additional observations from a re-analysis of the deposited data

Results flagged for a closer look

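Of 118 groups of 4 muscles examined, 4 held a muscle far from the other 3 by Dixon's ratio, where chance at 1 in 20 gives 5.9. The summed bone markers of NT replicate 1 (29.6 TPM) lay above the other NT muscles (17.9 to 18.5 TPM), and this is also the NT muscle with the highest *Omd* and *Fmod*. *Csgalnact2* was highest in *Uba1* replicate 2 (15.0 TPM). *Adamts1* was highest of its group in *Uba1* replicate 4 (34.3 TPM), and *Optc*, an SLRP gene of the eye, was lowest in *Uba1* replicate 4 (0.0256 TPM, below the filter).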

How the results depend on the processing

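Over 19 alternatives the 8 members not chosen for their values gave 152 values, of which 145 kept their direction, and none passed an adjusted p of 0.05. *Ogn* and *Omd*, which were not tested, gave 37 values, all above 0. *Omd* gave no value under a mean of 5 TPM and moved to 1.54 with a pseudocount of 0.1. *Kera* turned to 0.00205 without mitochondrial genes and ranged from -0.27 to 0.17 with 1 muscle left out, and *Bgn* from -0.035 to 0.37. Members meeting the criterion of the study numbered 2, but 1 with a mean of 5 TPM, median-ratio scaling, quantile normalization or the block with median-ratio scaling, 4 without mouse 1 (chosen after seeing the data) and 1 to 5 with 1 muscle left out. It was 5 without NT replicate 1, 4 without NT replicate 3, and 1 without NT replicate 2, NT replicate 4 or *Uba1* replicate 3. *Ogn* and *Omd*, chosen on this contrast, were among the genes counted, so nothing is read from these counts. Fits without a muscle kept the full set of genes.

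Of all genes, 3 passed the adjusted p, but 11 with a mean of 5 TPM, 23 with median-ratio scaling, 28 with quantile normalization, 13 without mitochondrial genes, 57 with the mouse as a replicate block, 76 with that block after median-ratio scaling, and 2 to 39 with 1 muscle left out. By the Kruskal-Wallis test it was 0 (2210 at an unadjusted p under 0.05) and by limma without mouse 1 it was 0 (1376 unadjusted). Genes higher by the criterion numbered 51, but 151 with a pseudocount of 0.1, 20 with a mean of 5 TPM, 29 with median-ratio scaling, 28 with quantile normalization, 87 without mitochondrial genes, 89 without mouse 1, and 51 to 82 with 1 muscle left out. Genes lower numbered 96, but 155 with the block after median-ratio scaling, and 79 to 118 with 1 muscle left out. Higher genes were 34.7% of calls, 17.4% after median-ratio scaling, 17.4% after quantile normalization, 45.1% without mitochondrial genes, 18.8% with the block after median-ratio scaling, and 55.3% with a pseudocount of 0.1. The replicate block changed no call of the genes named beyond those given, and that of *Lox* was lost with median-ratio scaling (adjusted p = 0.114). Without the block, limma also passed *Adamts4* after median-ratio scaling and quantile normalization (adjusted p = 0.0472 and 0.0374), *Sdc4* with a mean of 5 TPM (0.0466), *Uba1* under both scalings, a mean of 5 TPM and no mitochondrial genes (0.0333 to 0.0486), *Adamts1* and *Sdc4* without *Uba1* replicate 4 (0.0374 and 0.0295) and *Uba1* without *Uba1* replicate 2 or 4 (0.00257 and 0.0206). The cause of these shifts was not tested.

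Reversed log2FC under median-ratio scaling, with and without the block, were *B3gat3* -0.088, *Itgb1* -0.038, *Gpc1* -0.10, *Hspg2* -0.024 and *Gpc4* -0.055. Under quantile normalization they were *B3gat3* -0.061, *Gpc1* -0.025 and *Gpc4* -0.032, and without mouse 1 *B3gat3* -0.029, *Gpc1* -0.078 and *Gpc4* -0.016. *Ippk* turned to 0.0073 without mitochondrial genes. With 1 muscle left out, the ranges were -0.017 to 0.080 for *B3gat3*, -0.18 to 0.15 for *Mstn*, -0.054 to 0.087 for *Gpc1*, -0.044 to 0.18 for *Hspg2*, -0.067 to 0.22 for *Gpc4* and -0.059 to 0.047 for *Ippk*.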

Other observations

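The 5 SLRP genes below the filter were at low levels. *Podnl1*, which encodes a podocan-like protein, was at 0.339, 0.0546, 0.132 and 0.214 TPM in the NT muscles and 0.134, 1.57, 0.623 and 1.34 TPM in the *Uba1* muscles, higher in 3 of 4 pairs and lower in mouse 1. Its exons share 1086 bases with *Cc2d1a* on the other strand. *Chadl* was at 0.254 to 0.356 and 0.300 to 0.567 TPM, and *Epyc*, *Nyx* and *Optc*, known from cartilage and the eye, were at 0.148 TPM or less in all 8 muscles.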
